A study of Mus musculus with 4 samples.

Results

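The mitotic checkpoint genes are 9 genes whose proteins delay or carry out chromosome separation: Mad2l1, Bub1b, Bub3, Bub1, Ttk, Aurkb, Aurka, Plk1 and Cenpe. They were taken by name from the 18700 gene names that the probes of a mouse array for comparative genomic hybridisation carry. Of the 9 genes, 7 had probes of their own, 22 in all, and Mad2l1 and Bub3 had none. Array comparative genomic hybridisation measures DNA copies, not RNA or protein. The DNA came from liver tumours of 4 mice labelled FAH-/- Trp53-/- and male, numbered 239, 240, 244 and 252, and each tumour was 1 sample. Fah, or fumarylacetoacetate hydrolase, completes the breakdown of tyrosine, and Trp53 is the gene of the tumour suppressor p53. Mice without Fah are kept alive by NTBC, which stops tyrosine breakdown before the toxic products that Fah would clear are formed. Per the labels, its full concentration was 7.5 mg per L of drinking water, and it was lowered to 2.5% of that dose for 6 months. Every tumour was set against the same pool of liver DNA from 3 mice labelled FAH+/+ Trp53+/+ and male. The sources used here give no ages. Tumour DNA carried the dye Cy5 and pool DNA the dye Cy3 on all 4 arrays, so no dye swap was analysed. The sources used here also give no share of tumour cells, and normal cells mixed in would make every change look smaller.

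During mitosis, chromosomes attach through their kinetochores to the microtubules of the spindle. The spindle assembly checkpoint holds the cell before anaphase while any kinetochore is unattached. Ttk, also called Mps1, is a kinase that starts the signal, Bub1 and Bub3 build the platform at the kinetochore, and Mad2l1 and Bub1b bind and hold back the activator of the anaphase promoting complex. Aurkb corrects wrong attachments, Aurka and Plk1 drive centrosome maturation and spindle assembly, and Cenpe is a kinesin motor that carries chromosomes to the spindle equator. Partial loss of several of these genes raises the rate of chromosome missegregation in mice, and normal mouse liver already holds many polyploid hepatocytes.

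All values are log2 of tumour over pool signal, centred on the autosomal median of each array, so 0 is the middle of that array and a positive value is more tumour DNA. On an autosome of diploid cells, a gain of 1 copy in every cell would give 0.58 and a loss of 1 copy -1. Each array gave 170305 probes, 161460 of them autosomal, at a median spacing of 10.8 kb, and the number of arrays limits the precision. The difference between neighbouring probes gave a noise SD per probe of 0.31 to 0.39 over the 4 arrays, so 1 probe alone says little about 1 copy. Each gene was therefore read in a pair of ways: by its own probes, and by its surrounding level, the mean of the other probes within 1 Mb. The targeted genes had 2 probes each. Trp53 lay at 0.09, 0.08, 0.06 and 0.07 and Fah at 0.30, 0.02, -0.19 and 0.05 in tumours 239, 240, 244 and 252, but which part of each gene is deleted is not stated in the labels, so these values do not test the genotype. Tumour 252 went against its label: its X probes had a median of 0.73 and its Y probes -2.43, against medians of -0.30 to -0.09 for X and -1.20 to -0.14 for Y in the other 3 tumours. All 9 checkpoint genes are autosomal, and where leaving out tumour 252 ended a call, that is said beside it.

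The probes that carry the results on single genes are printed here 5′ to 3′ as in the array files, with G and C in capitals and A and T in lower case, since GC content affects hybridisation. Positions are those of mm9, the strand is not given in the files, and where each probe lies relative to exons was not analysed here. The 4 probes of Ttk are shown because they disagreed with each other and, as a mean, with the DNA around them.
Ttk, chr9:83736042-83736101: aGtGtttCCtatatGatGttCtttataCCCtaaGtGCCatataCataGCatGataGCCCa
Ttk, chr9:83750281-83750340: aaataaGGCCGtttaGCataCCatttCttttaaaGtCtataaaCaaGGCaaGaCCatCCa
Ttk, chr9:83756252-83756309: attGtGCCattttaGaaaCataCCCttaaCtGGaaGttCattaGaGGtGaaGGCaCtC
Ttk, chr9:83763109-83763168: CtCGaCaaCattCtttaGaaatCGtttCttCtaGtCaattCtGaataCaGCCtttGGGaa
The 4 probes of Bub1 are shown because their mean lay below that of the surrounding DNA in all 4 tumours.
Bub1, chr2:127627098-127627157: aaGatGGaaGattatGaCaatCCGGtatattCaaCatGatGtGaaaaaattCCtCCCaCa
Bub1, chr2:127637983-127638042: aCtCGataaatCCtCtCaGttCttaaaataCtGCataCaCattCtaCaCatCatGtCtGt
Bub1, chr2:127649643-127649702: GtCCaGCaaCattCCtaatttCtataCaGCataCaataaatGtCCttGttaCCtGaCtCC
Bub1, chr2:127655650-127655709: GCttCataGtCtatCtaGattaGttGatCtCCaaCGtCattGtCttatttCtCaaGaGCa
Aurkb and Aurka had 1 probe each, and these are shown because each stood apart from its region in opposite directions.
Aurkb, chr11:68860408-68860467: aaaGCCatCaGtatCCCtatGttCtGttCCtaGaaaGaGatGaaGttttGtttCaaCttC
Aurka, chr2:172193252-172193311: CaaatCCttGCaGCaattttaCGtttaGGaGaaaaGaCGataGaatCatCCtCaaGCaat
All 22 probes had a GC share between 35% and 40%, with a median of 36.7%, equal to the median of all 98378 named autosomal probes.

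In the surrounding DNA, only Aurka passed the test against 0 over the 4 tumours, and in tumour 244 Mad2l1 and Ttk lay at or below -0.2. By the fit over all genes, 1 of the 9 genes was called, and it was higher. Of all 18702 genes tested, 9.15% were called, 5.41% higher and 3.74% lower, so 1 of 9 is near that background. With normexp, a background model on the raw intensities with an offset of 50, the split of all calls turned, to 526 higher and 977 lower. Here it was 1012 higher and 699 lower. Normexp values also lack the spatial detrending and dye correction that the scanner software applied. When tumour 244 was left out, 4 of the 9 genes were called, Aurka (adjusted p = 0.0277), Bub3 (0.0423) and Bub1 (0.046) higher and Cenpe (0.0414) lower, beside 23.0% of all genes. The median surrounding level was 0.00 over the 9 genes and 0.02 over all genes. The test was limma's moderated test against 0, with Benjamini-Hochberg adjustment over all genes, and the pool stood for the controls as 1 sample, which leaves their own variation out.

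**Figure D1:**
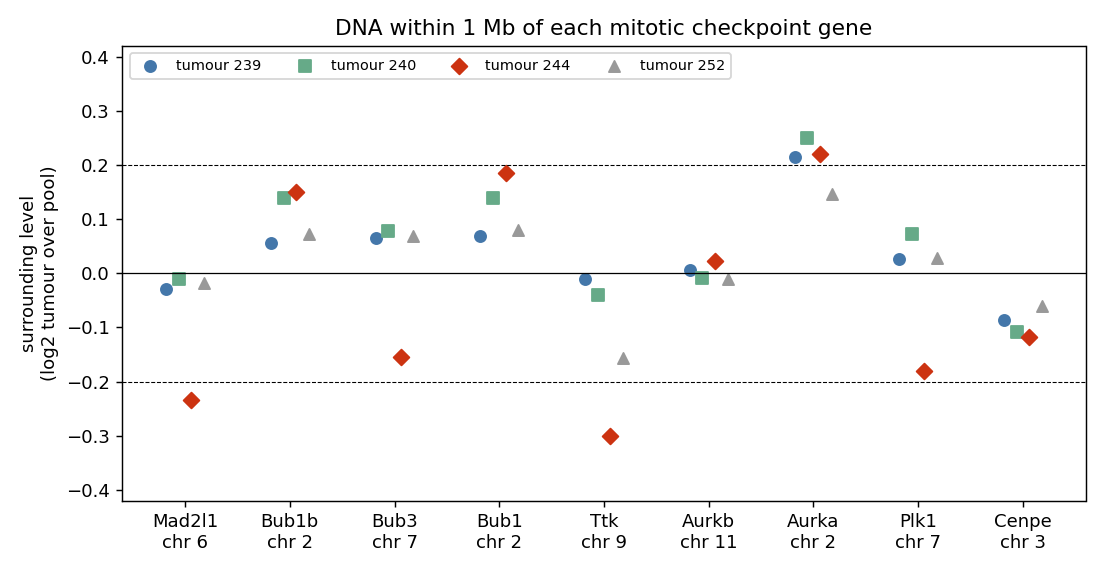
Surrounding level (log2 tumour over pool, mean of the other probes within 1 Mb) of each checkpoint gene, with 1 point per tumour and dashed lines at 0.2 and -0.2. Aurka lies between 0.15 and 0.25 in the 4 tumours, and tumour 244 is the lowest for Mad2l1, Bub3, Ttk, Plk1 and Cenpe.

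The genes that bind the activator of the anaphase promoting complex were Mad2l1 and Bub1b. Mad2l1 lies on chromosome 6, and since no probe carries its name, it was placed by gene order in a RefSeq table, in an interval of 637 kb that holds 24 probes. Around it, the surrounding level on 150 probes was -0.03, -0.01, -0.23 and -0.02 in tumours 239, 240, 244 and 252, on average -0.07 ± 0.11 (SD, n = 4, adjusted p = 0.378). Tumour 244 stood alone, and the other 3 tumours lay between -0.03 and -0.01. The whole of chromosome 6 was at -0.25 in tumour 244 and between -0.05 and -0.01 in the others, and the region of Mad2l1 differed from its chromosome by 0.00, 0.04, 0.02 and -0.01 in tumours 239, 240, 244 and 252. The interval's own probes gave -0.06, -0.04, -0.24 and -0.02, and their difference from the surrounding probes averaged -0.02 ± 0.02 (SD, n = 4, adjusted p = 0.683).

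Bub1b lies on chromosome 2, where its 5 probes span chr2:118435077-118466093. Its surrounding level on 167 probes was 0.06, 0.14, 0.15 and 0.07 in tumours 239, 240, 244 and 252, on average 0.10 ± 0.05 (SD, n = 4, adjusted p = 0.109). All 4 tumours lay above 0, but the mean did not pass the test. Its own probes averaged 0.08, 0.14, 0.07 and 0.03, which differed from the surroundings by -0.02 ± 0.05 (SD, n = 4, adjusted p = 0.607). Behind that mean the 5 probes scattered: their own means over the tumours ran between -0.31 and 0.49, and both of these extreme probes kept their sign in all 4 tumours.

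The platform genes were Bub3, Bub1 and Ttk, the kinase that acts on it. Bub3 lies on chromosome 7 and had no named probe. It was placed between Acadsb and Gpr26, in chr7:138587382-139165118, a stretch of 578 kb with 26 probes. The surrounding level of Bub3 on 198 probes was 0.07, 0.08, -0.16 and 0.07 in tumours 239, 240, 244 and 252, on average 0.01 ± 0.11 (SD, n = 4, adjusted p = 0.870). Tumour 244 was again alone on the lower side, and the range of the other 3 tumours was 0.07 to 0.08. Compared with its chromosome, the region around Bub3 lay higher by 0.08 in each of the 4 tumours, also in tumour 244, where chromosome 7 as a whole was at -0.23.

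Bub1, on chromosome 2 some 9.16 Mb from Bub1b, had a surrounding level of 0.07, 0.14, 0.19 and 0.08 in tumours 239, 240, 244 and 252 on 182 probes. The mean was 0.12 ± 0.05 (SD, n = 4, adjusted p = 0.0929), above 0 in 4 of 4 tumours and not past the test. The own probes of Bub1 printed above went the other way, at -0.06, -0.11, -0.16 and -0.11, below 0 in all 4 tumours. The difference, own minus surrounding, was -0.13, -0.25, -0.35 and -0.19, on average -0.23 ± 0.09 (SD, n = 4, adjusted p = 0.00866). The probe at chr2:127655650-127655709 was the lowest of the 4, with a mean of -0.24 ± 0.04, and the probe at chr2:127637983-127638042 was the highest at 0.08 ± 0.11 (SD, n = 4 tumours each).

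Ttk lies on chromosome 9 and had the widest spread of the 9 genes. Its surrounding level on 108 probes was -0.01, -0.04, -0.30 and -0.16 in tumours 239, 240, 244 and 252, on average -0.13 ± 0.13 (SD, n = 4, adjusted p = 0.211). Tumours 244 and 252 were the low ones, and chromosome 9 as a whole was also lowest in them, at -0.23 and -0.09, and lay at -0.02 and -0.002 in 239 and 240. The DNA to the right of Ttk, at higher coordinates, lay above that to its left by 0.12, 0.16, 0.16 and 0.14 in tumours 239, 240, 244 and 252, a step of nearly the same size in every array. Further right, at 1.5 Mb, the running mean reached its lowest point within 3 Mb, at -0.45, -0.52, -0.61 and -0.55, so this dip too was shared by the 4 arrays.

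The own probes of Ttk averaged 0.13, 0.21, 0.14 and 0.02 in tumours 239, 240, 244 and 252, and lay above the surrounding probes by 0.25 ± 0.13 (SD, n = 4, adjusted p = 0.0139). The 4 probes did not share this. The probe at chr9:83736042-83736101 averaged 0.60 ± 0.22, and the probe at chr9:83763109-83763168 of the same gene averaged -0.41 ± 0.14 (SD, n = 4 tumours each), and both kept their sign in all 4 tumours. With normexp on the raw intensities, the difference of own and surrounding probes was -0.13 (adjusted p = 0.036), the opposite direction. That setting replaced the scanner software's subtraction, spatial detrending and dye correction together, and which of these matters was not tested.

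**Figure D2:**
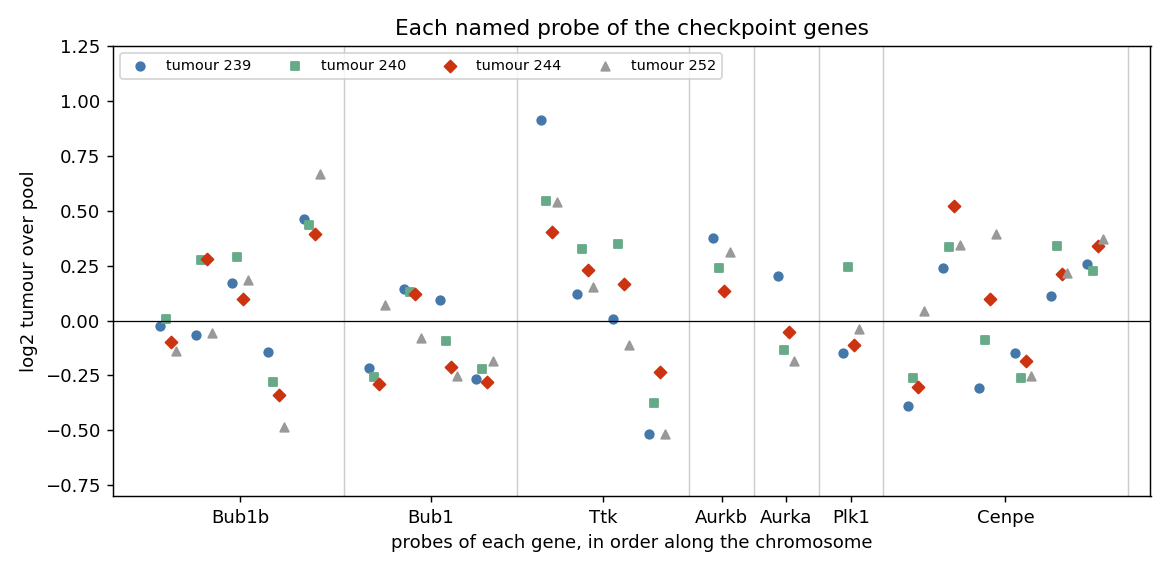
Log2 tumour over pool of each of the 22 named probes, grouped by gene and ordered along the chromosome, with 1 point per tumour. The probe means of Ttk run between -0.41 and 0.60, and 14 of the 22 probes lie on 1 side of their neighbours in all 4 tumours.

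Among the kinases of attachment and spindle assembly, Aurkb lay in DNA at the array's middle. Its surrounding level on 194 probes of chromosome 11 was 0.01, -0.01, 0.02 and -0.01 in tumours 239, 240, 244 and 252, on average 0.00 ± 0.02 (SD, n = 4, adjusted p = 0.967). This was the narrowest spread of the 9 genes, tumour 244 included. Trp53 lies 535 kb from the Aurkb probe, so the probes around Trp53 are part of that mean. The single Aurkb probe, at chr11:68860408-68860467, gave tumour over pool signals of 983 over 747, 1044 over 870, 1073 over 953 and 1016 over 824 in tumours 239, 240, 244 and 252. As log2 ratios these were 0.38, 0.24, 0.14 and 0.31, on average 0.27 ± 0.10 (SD, n = 4, adjusted p = 0.0167), higher in 4 of 4 tumours. Aurkb was the only 1 of the 9 genes called on its own probes, where 32.7% of all 18701 genes were called, 17.6% higher and 15.1% lower (3299 and 2825 genes, and 3447 and 4593 with normexp). The other 19 probes within 100 kb averaged -0.03. The call on the own probe was lost without tumour 239, 240 or 252, at adjusted p of 0.0594, 0.0694 and 0.0507. It was also lost with centring on the mode, at 0.0564. About 2.3 Mb to the right the running mean fell to -1.26, -1.25, -1.28 and -1.32, a dip alike in the 4 tumours that lies outside the window of Aurkb.

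Aurka, at the far end of chromosome 2, had the highest surrounding level. It was 0.21, 0.25, 0.22 and 0.15 in tumours 239, 240, 244 and 252 on 98 probes, on average 0.21 ± 0.04 (SD, n = 4, adjusted p = 0.0217). All 4 tumours were above 0, and tumour 252 was the lowest. The region lay above the mean of chromosome 2 by 0.18, 0.16, 0.11 and 0.12, so it stood higher than its chromosome in each tumour. The probes within 100 kb gave 0.30, 0.29, 0.30 and 0.19. The call was lost without tumour 239, 240 or 252, at adjusted p of 0.148, 0.122 and 0.0674 in limma, although the mean stayed between 0.19 and 0.23. It was also lost with normexp, at 0.09 (adjusted p = 0.214), and with centring on the mode, at 0.17 (adjusted p = 0.0618).

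The single Aurka probe, at chr2:172193252-172193311, did not follow its region. Its tumour over pool signals were 1745 over 1496, 1505 over 1624, 1674 over 1694 and 1352 over 1548 in tumours 239, 240, 244 and 252, which are log2 ratios of 0.20, -0.13, -0.05 and -0.19. Tumour 239 was above 0 and the others below. The probe lay under its surroundings by 0.01, 0.38, 0.27 and 0.33, a mean difference of -0.25 ± 0.16 (SD, n = 4, adjusted p = 0.0234), and with normexp the difference was 0.10, on the other side of 0.

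Plk1 lies on chromosome 7, 9.28 Mb from the interval of Bub3 and 37.6 Mb from Fah. Its surrounding level on 159 probes was 0.03, 0.07, -0.18 and 0.03 in tumours 239, 240, 244 and 252, on average -0.01 ± 0.11 (SD, n = 4, adjusted p = 0.880), and again only tumour 244 was below 0. Close to the gene the picture differed: the 17 probes within 100 kb averaged -0.13, -0.15, -0.39 and -0.14, lower than the wider region in each tumour. The single Plk1 probe gave -0.15, 0.24, -0.11 and -0.04, with tumour 240 alone above 0, and its mean of -0.01 ± 0.18 (SD, n = 4, adjusted p = 0.911) was within the spread of the tumours.

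Cenpe, the kinetochore motor, lies on chromosome 3 with 6 probes in chr3:134879408-134923694. Its surrounding level on 139 probes was -0.09, -0.11, -0.12 and -0.06 in tumours 239, 240, 244 and 252, on average -0.09 ± 0.03 (SD, n = 4, adjusted p = 0.108). All 4 tumours were below 0, and the mean did not pass the test. The 69 probes within 0.5 Mb averaged -0.01, with tumour 252 above 0 at 0.03, so the lower level came from the outer part of the window. Its own probes gave -0.04, 0.05, 0.11 and 0.18, higher than the surroundings in 4 of 4 tumours by a mean of 0.17 ± 0.09 (SD, n = 4, adjusted p = 0.0222). The 6 probe means ran between -0.23 and 0.36. With normexp the difference was 0.02 (adjusted p = 0.584).

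**Figure D3:**
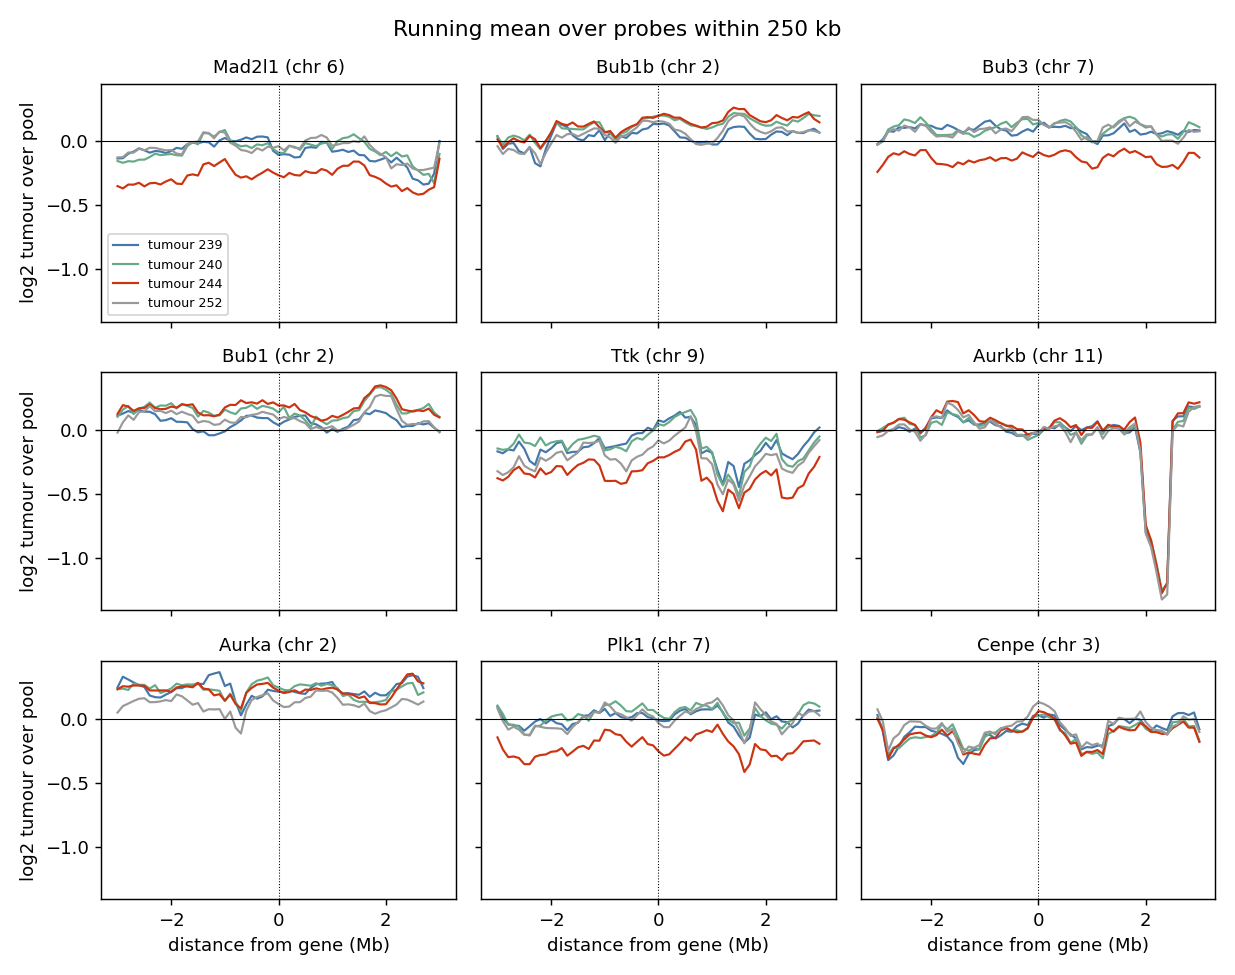
Running mean of log2 tumour over pool within 250 kb, by distance from each checkpoint gene in Mb, with 1 line per tumour. The 4 lines share their steps around Ttk, tumour 244 runs below the others at Mad2l1, Bub3, Ttk and Plk1, and the deep dip to the right of Aurkb is shared by all 4 tumours.

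Ordered by mean surrounding level, the genes ran Ttk, Cenpe, Mad2l1, Plk1, Aurkb, Bub3, Bub1b, Bub1 and Aurka, low to high. Between neighbours in this order the gap was at most 0.09, and 7 of the 8 gaps were no larger than the greater SD of the pair. The exception was Aurka over Bub1, by 0.09 ± 0.05 (SD of the differences within tumours, n = 4). Within tumours, 3 of the 8 gaps had the same sign in all 4: Aurka over Bub1, Plk1 over Mad2l1 by 0.06 ± 0.02, and Bub1 over Bub1b by 0.01 ± 0.01 (SD, n = 4 each). The range over the tumours separated the genes into wide and narrow. It was 0.29 for Ttk, 0.25 for Plk1, 0.23 for Bub3 and 0.23 for Mad2l1, and between 0.03 and 0.12 for the other 5. In each of the 4 wide ones the lowest tumour was 244, and their chromosomes, 6, 7 and 9, were at -0.25 to -0.23 in that tumour.

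Taking each gene's own probes against the surroundings, 5 of the 9 genes were called, 3 higher (Ttk, Aurkb and Cenpe) and 2 lower (Bub1 and Aurka). Of all 18698 genes, 47.7% were called in the same way, 25.3% higher and 22.4% lower, and 5 of 9 is near that share. All 5 are among the 7 genes with probes of their own. Mad2l1 and Bub3 were not called, and they alone among the genes tested were read as means over an interval. Under 14 alternative settings, Bub3 gained a call in 2 (lowest adjusted p = 0.0452) and Mad2l1 in 1 (0.0316). The calls of Aurka and Cenpe were lost without tumour 240 (adjusted p = 0.0909 and 0.0716), 244 (0.0793 and 0.0921) or 252 (0.0864 and 0.0868), and that of Ttk without tumour 240 (0.0541). With a lowess trend on intensity removed, Ttk lay above its surroundings by 0.13 (adjusted p = 0.105), and with a trend on probe GC removed Aurka lay at -0.18 relative to its surroundings (adjusted p = 0.0515). Cenpe lay above its neighbours within 0.5 Mb by 0.09 (adjusted p = 0.137), and above the median of its neighbours within 1 Mb by 0.13 (adjusted p = 0.0776). Of the 22 named probes, 14 lay on the same side of their neighbours in all 4 tumours, against 61.2% of all named autosomal probes. Every array shares the pool, the probe set and the dye assignment, and limma's spread between tumours holds none of what they share. No array of normal against normal liver was analysed, so a difference of copies and a fixed property of the probe cannot be told apart at the level of 1 probe. Likewise, where a surrounding level was similar in all 4 tumours, as for Aurka, a difference of copies and an effect of what the arrays share cannot be told apart.

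**Figure D4:**
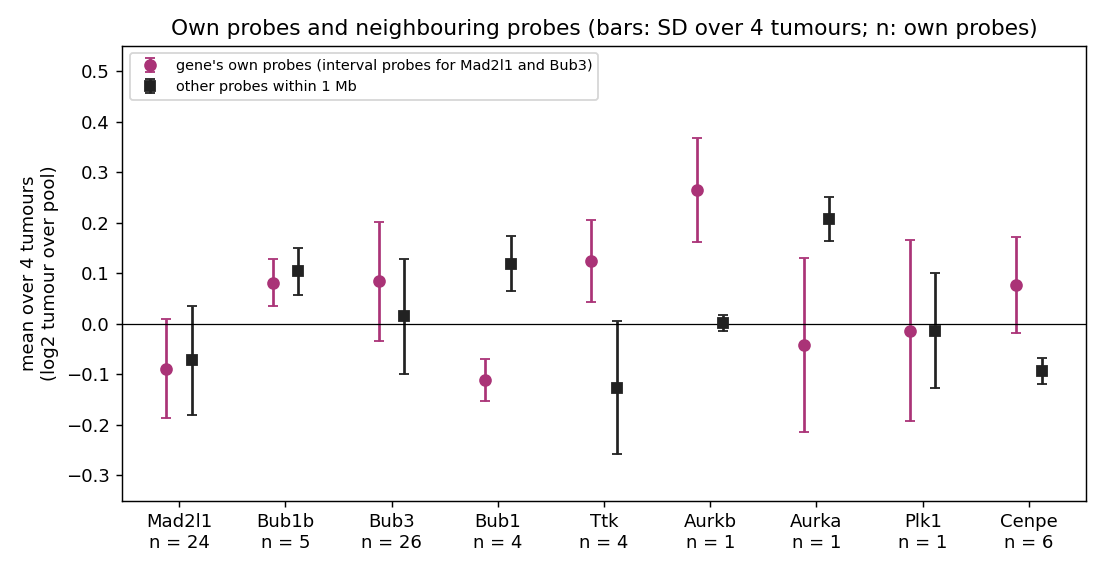
Mean over 4 tumours (log2 tumour over pool, bars SD) of each gene's own probes, left, and of the other probes within 1 Mb, right, with the number of own probes under each name. Own probes lie above their surroundings for Ttk, Aurkb and Cenpe and below for Bub1 and Aurka.

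How altered each tumour was, and how many checkpoint genes lay in altered DNA, was counted without a test. Bins of 1 Mb on the autosomes, 2388 in all, were called altered at or past 0.2 in size. Altered bins made up 12.9%, 7.62%, 51.9% and 10.7% of tumours 239, 240, 244 and 252, with lost bins ahead of gained ones in each, at 30.5% lost and 21.4% gained in tumour 244. The mean share was 20.8% ± 20.8 (SD, n = 4), and tumour 244 stood far above the others.

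The surrounding level was at or past 0.2 for 1, 1, 3 and 0 of the 9 checkpoint genes in tumours 239, 240, 244 and 252. Over all 17965 autosomal genes the shares were 8.73%, 3.59%, 46.5% and 6.62%. Split by side, the shares on the higher side were 4.26%, 1.72%, 20.1% and 3.75%, and those on the lower side 4.48%, 1.87%, 26.4% and 2.87%. Aurka was the gene in tumours 239 and 240, on the higher side. In tumour 244 Mad2l1 and Ttk were on the lower side, and Aurka on the higher. The median size of the surrounding level was 0.06, 0.08, 0.18 and 0.07 over the 9 genes, and 0.05, 0.06, 0.19 and 0.06 over all genes, so the most altered tumour was also the one where these genes lay furthest from 0, as genes in general did. With 4 tumours no correlation was computed. A change in some of a tumour's cells and a smaller change in all of them cannot be told apart in these bulk samples.

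**Figure D5:**
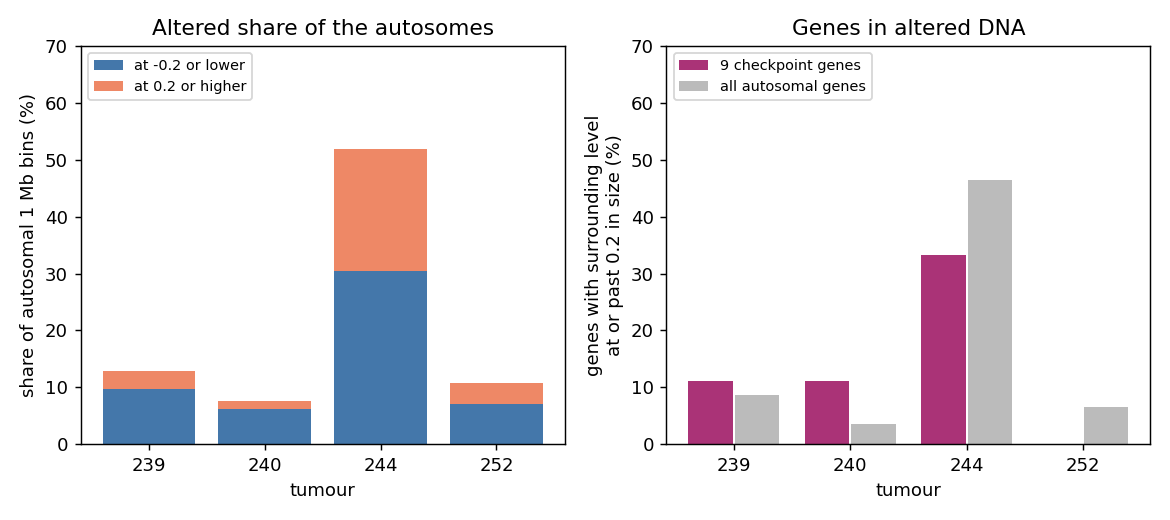
Left, share of autosomal 1 Mb bins (%) at or below -0.2 and at or above 0.2 in each tumour. Right, share (%) of the 9 checkpoint genes and of all autosomal genes with a surrounding level at or past 0.2 in size. Tumour 244 is highest in both, with 3 of 9 checkpoint genes and 46.5% of all genes, and with 5 of 9 and 51.6% when it is centred on its mode.

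The zero point matters for tumour 244. Its median lay 0.115 below the mode, the commonest level of its autosomes (here of running means over probes), and in the other tumours the distance was at most 0.01 in size. With tumour 244 centred on its mode, its surrounding levels became -0.35 for Mad2l1, -0.41 for Ttk, -0.27 for Bub3, -0.30 for Plk1, -0.23 for Cenpe and 0.10 for Aurka. These put 5 of the 9 genes on the lower side and 0 on the higher, beside 40.1% of all autosomal genes lower and 11.5% higher.

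A wider list of 65 mitosis genes was read the same way, and 58 of them are named in the files. In the surrounding DNA, 2 were called higher and 2 lower, or 6.90% in all, beside 9.15% of all genes (5.41% higher and 3.74% lower). Espl1, the protease separase that cuts cohesin at anaphase, lies on chromosome 15 and was at 0.25, 0.19, 0.39 and 0.32 in tumours 239, 240, 244 and 252, on average 0.29 ± 0.09 (SD, n = 4, adjusted p = 0.0217). Chromosome 15 as a whole was at 0.23, 0.15, 0.35 and 0.28 in the same tumours, so the level of Espl1 was near that of its chromosome. Wapl, which releases cohesin from chromosomes, lies on chromosome 14 and was at -0.17, -0.19, -0.15 and -0.20, on average -0.17 ± 0.02 (SD, n = 4, adjusted p = 0.0222). Birc5, the survivin subunit of the Aurkb complex, averaged 0.13 ± 0.02, and Mis12, a kinetochore subunit, averaged -0.23 ± 0.03 (SD, n = 4 each), with adjusted p of 0.0433 and 0.0217. Both of these lie on chromosome 11 and were chosen after their values were seen. All 4 calls were lost without tumour 239 (adjusted p = 0.148 to 0.211) and without tumour 252 (0.0674 to 0.208), and those of Wapl, Birc5 and Mis12 also without tumour 240 (0.0615 to 0.261). With the median of the neighbours in place of the mean, Mis12 was at 0.02 (adjusted p = 0.773), the other side of 0, and Wapl at -0.12 (0.0917). Mis12 was at -0.45 within 0.5 Mb, -0.08 within 2 Mb (adjusted p = 0.149) and -0.10 on probes well above background (0.0898). Its level thus depended on the window and the probes used, and the cause was not tested. Birc5 was at 0.02 with normexp (0.691).

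By role, the surrounding calls were 0 of 8 for the other attachment checkpoint genes, 1 of 9 for the outer kinetochore, 1 of 5 for the Aurkb complex and shugoshins, 0 of 7 for centromere proteins, 1 of 11 for the anaphase promoting complex with separase, 1 of 8 for cohesin and 0 of 10 for mitotic entry and spindle, against the same 9.15% of all genes. The median surrounding level of the 58 genes was 0.05. On their own probes 10 were called higher and 4 lower, or 24.1% in all, beside 32.7% of all genes (17.6% higher and 15.1% lower). At or past 0.2 in size were 3, 1, 23 and 5 of the 58 in tumours 239, 240, 244 and 252. These are 5.17%, 1.72%, 39.7% and 8.62% of the list, beside 8.73%, 3.59%, 46.5% and 6.62% of all autosomal genes. In tumour 252, 3 of these 5 were the X-linked genes Cenpi, Smc1a and Stag2, at 0.79, 0.69 and 0.75, in the tumour whose X and Y went against its label. The same 3 genes were also counted in tumour 244, at -0.27, -0.31 and -0.36. Since the background holds autosomal genes only, the shares are not strictly alike. Leaving the X-linked genes out would lower the list's shares in tumours 244 and 252.

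Of the wider list on other chromosomes, the gene closest to Ttk over the 4 tumours was Cenpk on chromosome 13, at -0.05, -0.11, -0.31 and -0.03, a Euclidean distance of 0.15 in log2. The closest to Plk1 was Cdk1, the kinase of mitotic entry, on chromosome 10, at 0.04, 0.07, -0.16 and 0.09, a distance of 0.07. These rest on 4 tumours and mainly on tumour 244, where chromosomes 10 and 13 were at -0.25 and -0.31.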

How the data were processed

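The authors' scanner files hold, per the file headers, for each colour the raw mean and background intensity and a processed intensity, made by background subtraction, spatial detrending and a linear dye correction. Per the submitters' processing notes the software was Agilent Feature Extraction 12.0.0, whereas 12.0.1.1 stands in the headers. The authors' deposited value table holds log10 ratios of tumour over pool, not centred, with column medians of 0.0023, 0.00233, 0.00131 and 0.000212. All 4 arrays lay on 1 slide in 1 scan, per the file headers, so there was no slide or scan to test.

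Of 180880 spots per array, 6575 control spots and 95 to 120 outlier spots were left out, and 98.7% to 98.9% were well above background in both colours. Spots of a probe were averaged, log2 of tumour over pool was taken, and each array's autosomal median was subtracted, without loess or quantile normalisation. For 2 genes without a named probe, all probes between the nearest named genes in RefSeq gene order (GRCm38.p6) were used, since a position in mm9 was not used here. The bounds of the interval on chromosome 6 are not reported here. The own level, the surrounding level and their difference were each tested against 0 (R 4.3.3, limma 3.58.1, 1 intercept, Benjamini-Hochberg at 0.05). A minimum of 20 neighbouring probes applied to the difference only. The fits were tested on simulated data, with 200 genes shifted by each size and all other genes left unshifted. At a shift of 0.2 the fit recovered 0% on own probes, 29% on the surrounding level and 34.5% on own minus surrounding. At 0.4 it recovered 50.5%, 85% and 86.5%. In the real data far more genes were called, 32.7% on own probes, 9.15% on the surrounding level and 47.7% on the difference. The adjustment depends on the share of changed genes, so the simulated rates need not hold for the real fits. A level near 0.2 that did not pass the test is still not shown to be unchanged. Other steps used Python 3.11.15, pandas 2.3.3, numpy 2.4.6, statsmodels 0.14.6, scipy 1.17.1 and matplotlib 3.10.9.

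The 9 genes, the wider list and the tests were chosen with earlier results of these data known. Named were the 9 genes, wider-list genes with at least 3 own probes and a call on the surrounding level, and the closest wider-list gene for the 2 members of widest range. Nothing in the labels says more of the replicates than 4 numbered animals. Alternatives covered centring, normexp from the raw intensities, the value table, intensity and probe GC trends, probe filters, windows, thresholds, bin size and leaving out each tumour.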

Additional observations from a re-analysis of the deposited data

Results flagged for a closer look

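Among 32 sets of 4 tumour values examined, 6 held 1 tumour far from the other 3, and chance flags about 1 in 20 such sets. All 6 were tumour 244. It was the low one for Mad2l1, at -0.235 on the interval's own probes and -0.235 in the surrounding DNA, and for Bub3, at -0.155 in the surrounding DNA. It was the high one for the share of autosomal bins gained, 21.4%, lost, 30.5%, and altered, 51.9%. The sets are not independent, since the levels of Mad2l1 and Bub3 come from the same array as the shares.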

How the results depend on the processing

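Of 146 comparisons of the main counts and shares with an alternative, 103 held within their limits and 43 moved. The number of the 9 genes called on the surrounding level, 1 at first, was 0 with centring on the mode or normexp, 3 with a window of 0.5 Mb (Aurka, Bub1b and Bub1), and 0 to 4 with 1 tumour left out. Over all genes these calls, 9.15% at first, were 4.51% with centring on the mode, 8.04% with normexp and 10.6% at 0.5 Mb. In number they were 1711 at first, 844 with centring on the mode and between 0 and 4294 with 1 tumour left out. The 0 arose in limma without tumour 239 or without 252, where 3573 and 3999 genes had an unadjusted p under 0.05. On own probes the count of the 9 genes, 1 at first, was 0 among genes with at least 3 probes and with centring on the mode, 4 with normexp (Aurkb and Plk1 higher, Mad2l1 and Ttk lower), 2 with probes within 100 kb (Aurka and Bub1b, higher), and 0 to 1 with 1 tumour left out. Over all genes these calls, 6124 at first, were 2312 with at least 3 probes and 3036 with probes within 100 kb, fewer genes being tested in the first, and 3128 to 5200 with 1 tumour left out. As shares they were 32.7% at first, 26.5% with at least 3 probes and 27.1% with centring on the mode. With normexp the share was 43.0%, and with probes within 100 kb 16.2%. For own minus surrounding probes, 5 of 9 became 2 to 5 with 1 tumour left out, and 8921 calls became 4489 with at least 3 probes and 5653 to 9672 with 1 tumour left out. As shares of the genes tested, 47.7% became 51.4% with at least 3 probes and 30.2% to 51.7% with 1 tumour left out. The count of genes at or past 0.2 in tumours 239, 240 and 244 (1, 1 and 3) became 0 in 239 and 240 with normexp and 5 in 244 with centring on the mode. Beside these stood 8.05%, 5.39% and 51.6% of all autosomal genes. A threshold of 0.1 gave 4, 8 and 2 genes in tumours 240, 244 and 252, and one of 0.3 gave 0 in 239, 240 and 244. The shares over all genes at these thresholds are not reported here. The altered share of the autosomes was 35.1%, 35.01%, 77.3% and 37.6% in tumours 239, 240, 244 and 252 at 0.1, and 25.7% in 244 at 0.3.

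Of 345 comparisons of single genes, 273 held, 10 gained and 21 lost a call, and 41 changed sign, most of them in means near 0. With normexp the own-probe level was 0.191 for Aurka, -0.00426 for Bub3, -0.105 for Cenpe, 0.215 for Plk1 and -0.244 for Ttk. Own minus surrounding was then 0.0998 for Aurka, 0.0756 for Bub1b, 0.340 for Plk1 and -0.134 for Ttk, and the surrounding level -0.0398 for Aurkb and -0.0814 for Bub3. With lowess on intensity, own levels were 0.00791 for Aurka and 0.00895 for Plk1, own minus surrounding 0.0379 for Bub1b and 0.0483 for Plk1, and the surrounding level of Bub3 -0.00818. With the probe GC trend removed, the own level of Aurka was 0.0245 and own minus surrounding of Bub1b 0.0216. With probes within 100 kb as own probes, the levels were 0.248 for Aurka, -0.0139 for Aurkb, 0.0626 for Bub1 and -0.0471 for Ttk. Centred on the mode, the surrounding level was -0.0304 for Aurkb and -0.0180 for Bub3. On probes well above background it was -0.00742 for Aurkb, and own minus surrounding was 0.0210 for Plk1, which was 0.000111 with the authors' value table, 0.0232 at 0.5 Mb and 0.0155 at 2 Mb. Own minus surrounding of Mad2l1 was 0.0107 at 0.5 Mb and 0.00870 at 2 Mb. With 1 tumour left out, the ranges were -0.124 to 0.00538 for the own level of Aurka, -0.0994 to 0.0318 for that of Plk1, -0.0573 to 0.0584 for own minus surrounding of Plk1, and for the surrounding level -0.00456 to 0.00658 for Aurkb, -0.00672 to 0.0711 for Bub3 and -0.0422 to 0.0425 for Plk1. The cause of these changes was not tested. No paired analysis was possible because the study has 1 group of tumours against 1 pool.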
